A study of Rattus norvegicus with 6 samples.

Results

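The m6A intervals described here are those that the deposited list assigned to genes on both strands of the same stretch of the genome. Rows of the list were grouped by chromosome, start and end, and an interval was kept where it was listed for at least 2 different genes with both a plus-strand and a minus-strand gene among them. This gave 1833 opposite-strand intervals of the 29268 distinct intervals in the list, or 6.26% (95% Wilson interval 5.99 to 6.55). They were set beside the 26755 intervals listed for exactly 1 gene and, where it helps, beside the 680 intervals shared by genes of a single strand.

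The list comes from methylated RNA immunoprecipitation sequencing (MeRIP-seq) of penile tissue from fetal Sprague-Dawley rats, in 3 case samples and 3 control samples. Per the series' design text, dams were gavaged from gestational day 12 to 19 with di-(2-ethylhexyl) phthalate (DEHP), a plasticizer that acts against androgens, or with corn oil alone, and the fetuses were taken at GD19.5; the affected tissue came from males with hypospadias, in which the urethra opens on the underside of the penis. The sources used here give neither the dose nor whether a sample was 1 fetus or a pool. The list held 0 columns of values per sample and no mark of the group in which an interval was found, so nothing below compares case with control tissue, the depth is unknown, and the tissue could not be checked against marker genes.

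N6-methyladenosine (m6A) is placed on messenger RNA by a methyltransferase complex around METTL3 and METTL14, is removed by demethylases such as ALKBH5, and is read by YTH-domain proteins that affect splicing, translation and decay. In mammals it is concentrated in long internal exons, near stop codons and in 3' untranslated regions. Gene pairs on opposite strands can overlap tail to tail, where both transcripts end in the shared stretch, head to head, where both begin there, or with one gene inside the other. Pull-down by the antibody recognises the modification and not the strand of origin, so an interval over such a pair needs strand-specific reads or other evidence before it can be given to a gene. The sources used here do not say whether the libraries kept strand.

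Most opposite-strand intervals concerned a simple pair. Of the 1833, 1702 (92.9%) were listed for exactly 2 genes, 1 on each strand, 110 for 3 genes and 15 for 4. The remaining 6 were listed for 5 to 8 genes. The interval with the most genes, at chr16:19288747-19460255, was listed for 4 plus-strand and 4 minus-strand genes over 171509 bp. The interval after it, at chr9:113676642-113775883, was listed for 2 plus-strand and 5 minus-strand genes over 99242 bp. The widest opposite-strand interval, at chr13:37116227-37327106, spanned 210880 bp and was listed for 1 gene on each strand. Such distances are genomic and may cross introns, so they are not lengths of methylated RNA. Ends are printed as the list has them and starts are printed 1-based, as set out in the processing section. The list states no build.

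The list behaved as if intervals were given to every gene whose stretch they fell in, whatever its strand. No interval lay between the outermost intervals of a gene without being listed for that gene (0 such cases over all 13146 genes). An opposite-strand listing therefore says that both genes cover the place, and not that m6A was found on both transcripts.

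Altogether 2050 genes (15.6% of those in the list) held at least 1 opposite-strand interval. For 1140 of them (55.6%) every listed interval was of this kind, and 654 of these had just 1 interval. The m6A record of those 1140 genes in the list thus rests only on intervals that are also listed for a gene of the other strand. The other 910 genes also had intervals free of an opposite-strand partner, and a median of 50% of their intervals were opposite-strand. Genes with an opposite-strand interval held 2.83 ± 2.20 intervals each (SD, n = 2050 genes), and genes without one held 2.36 ± 1.92 (SD, n = 11096 genes). A gene with more intervals has more chances to hold a shared one, so these means are not independent of how the genes were chosen.

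The 2050 genes formed 1149 plus-minus pairs, with every plus-minus combination within an interval counted. Of the 1149, 708 (61.6%) shared 1 interval, 441 (38.4%) shared 2 or more, and 51 shared 5 or more. Intervals listed for exactly 2 genes gave 989 pairs, the set used for the arrangements below. Of the opposite-strand intervals, 63.4% stood directly beside another interval with the same set of genes, in runs of up to 13. The like share of single-gene intervals was not counted, so this cannot be called particular to shared ones. Of the 26755 single-gene intervals, 22356 belonged to genes with 2 or more intervals. The nearest neighbour of any kind was a median of 400 bp away (quartiles 100 and 3860 bp) for opposite-strand intervals, against 500 bp (125 and 9002 bp) for single-gene intervals. A neighbour within 100 bp was present for 25.6% of opposite-strand and 24.9% of single-gene intervals, so close spacing was about as frequent in both.

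The pair with the most shared intervals was ENSRNOG00000021174 (plus) with ENSRNOG00000022428 (minus), with 13 between 204275892 and 204353432 on chromosome 1, a span of 77.5 kb. All 13 intervals of the minus-strand gene were shared, and the plus-strand gene had 1 more of its own, on its 3' side. Widths ran from 75 to 7604 bp with a median of 275 bp. A pair on chromosome 7, ENSRNOG00000004306 with ENSRNOG00000004311, shared all 10 intervals of either gene over 9.33 kb. A pair on chromosome 9, ENSRNOG00000067344 with ENSRNOG00000067790, also shared all 10, but spread over 317 kb. The widest of those, of 99242 bp, was the interval listed for 7 genes, so this was not a simple pair. The chromosome 7 and chromosome 9 pairs were 2 of the 3 tied at 10. These IDs carry no gene name in the sources used here, so nothing can be said of what the genes do.

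To see how the genes of a pair lie, each gene's own intervals, meaning those not listed for its partner, were placed relative to the shared one. Among the 1702 intervals of 1 plus-strand and 1 minus-strand gene, 906 (53.2%, in 533 pairs) had a partner with no interval of its own. All listed intervals of that partner were thus listed for the other gene as well. In 453 (26.6%, in 235 pairs) neither gene had an own interval. Both genes had own intervals in the remaining 343. Of these, 252 (73.5%, 95% Wilson interval 68.6 to 77.9) had tail-to-tail flanks, with the plus-strand gene's own intervals at lower and the minus-strand gene's at higher positions. The other 91 had head-to-head flanks, the reverse. By pairs, 150 of 221 (67.9%, 61.5 to 73.7) were tail-to-tail. No interval had both genes' own intervals on 1 side or on both sides, which the manner of listing described above leaves no room for.

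Outside the overlapping pairs, tail-to-tail order was the more frequent one at the wider of 2 distance limits only. Among neighbouring single-gene intervals of opposite-strand genes that shared no interval and lay up to 10000 bp apart, 700 of 995 (70.4%, 67.4 to 73.1) stood tail to tail, close to the share in overlapping pairs. Within 1000 bp the count was 59 of 132 (44.7%, 36.5 to 53.2), so tail-to-tail order was not the more frequent there. In the overlapping pairs, tail-to-tail flanks outnumbered head-to-head ones on 15 of 21 chromosomes, equalled them on 2 and were fewer on 4. The mitochondrial genome held 0 opposite-strand intervals of 12 (which allows up to 25%), and Y held 0 of 10 (up to 30%).

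**Figure D1:**
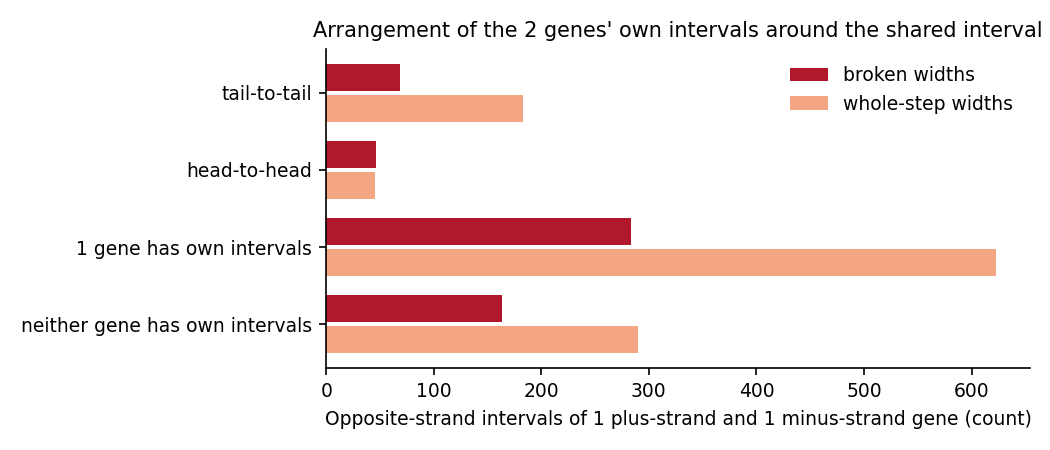
Number of opposite-strand intervals (horizontal axis) listed for 1 plus-strand and 1 minus-strand gene, by where the genes' own intervals lie, with darker bars for broken and paler bars for whole-step widths. Tail-to-tail flanks were found for 252 and head-to-head flanks for 91 intervals, and in the head-to-head group the bars are nearly equal.

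A tail-to-tail pair on chromosome 8 had the most own intervals of its kind. The plus-strand gene ENSRNOG00000013841 had 3 own intervals between 107474362 and 107519836, and the minus-strand gene ENSRNOG00000014161 had 11 between 107543771 and 107551524. Between them lay 4 shared intervals, from 107526273 to 107539910, of 175, 200, 200 and 100 bp. The head-to-head pair with the most own intervals, on chromosome 2, shared a single interval of 93 bp at chr2:174346369-174346461. From there the plus-strand gene ENSRNOG00000020386 had 13 own intervals towards higher positions, the first of them starting at 174346550, and the minus-strand gene ENSRNOG00000020373 had 1 towards lower positions, at chr2:174322371-174322570.

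Where only one gene of the pair had own intervals, these lay on that gene's 5' side alone for 423 of 906 shared intervals (46.7%, 43.5 to 49.9), on its 3' side alone for 337 (37.2%, 34.1 to 40.4) and on both sides for 146 (16.1%, 13.9 to 18.7). Shared intervals thus stood at the 3' edge of the gene with own intervals more often than at its 5' edge. A gene with a single own interval can have it on 1 side only, so the smaller count for both sides is in part set by how few own intervals there were.

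The same lean to the 3' end showed when each shared interval was ranked among all intervals of its gene. In genes with 2 or more intervals, opposite-strand intervals were the 3'-most one in 1048 of 3178 assignments (33.0%, 31.4 to 34.6) and the 5'-most in 799 (25.1%, 23.7 to 26.7). If each interval of those genes had the same chance, either share would be 28.7%. Single-gene intervals were 3'-most in 29.5% and 5'-most in 30.4% of assignments, where the same reckoning gives 30.0%. Intervals shared by genes of a single strand were 3'-most in 23.3% (21.1 to 25.7) and 5'-most in 27.6% (25.2 to 30.1) of assignments, within counting error of the 25.2% that the same chance gives. The share at the 3' end was 33.6% in plus-strand and 32.4% in minus-strand genes.

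**Figure D2:**
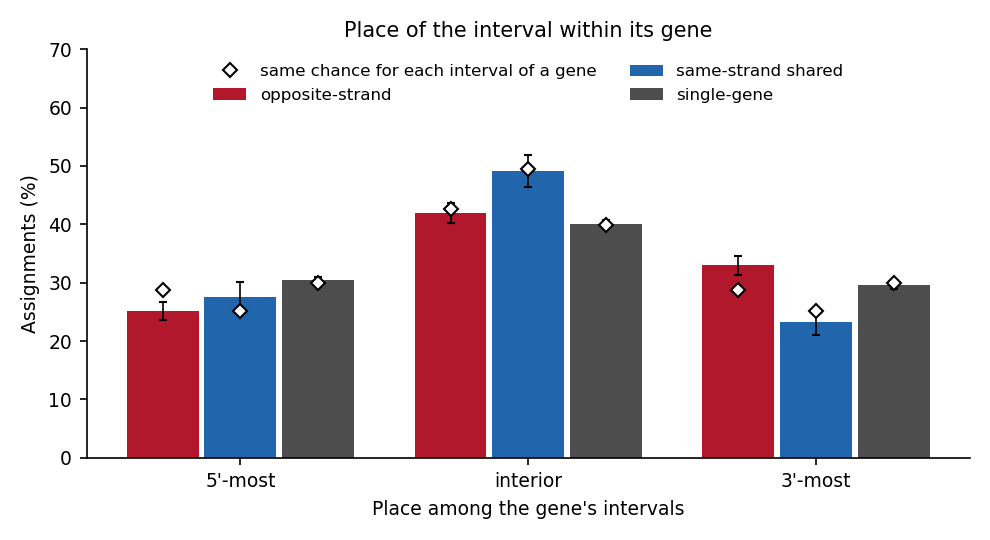
Share of interval-to-gene assignments (vertical axis, %) in which the interval was the 5'-most, an interior or the 3'-most interval of a gene with 2 or more intervals, for opposite-strand, same-strand shared and single-gene intervals. Error bars are 95% Wilson intervals and diamonds give the share if each interval of those genes had the same chance; opposite-strand intervals stand above their diamond at the 3' end (33.0% against 28.7%) and below it at the 5' end (25.1%).

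The highest position is the 3'-most in a plus-strand gene and the 5'-most in a minus-strand gene, so where a pair shares all or most of its intervals the ranks mirror each other by construction. Of the 1247 intervals whose 2 genes each had 2 or more intervals, 196 were 3'-most in the plus-strand gene and 5'-most in the minus-strand gene, and 177 the reverse. In 98 (7.86%) the interval was 3'-most in both genes, and in 53 (4.25%) it was 5'-most in both. The largest class, 353 intervals (28.3%), was interior in both.

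Width alone told little about the class. Opposite-strand intervals had a median width (end minus start) of 275 bp (95% order-statistic interval 250 to 277, quartiles 142 and 572 bp), against 250 bp (250 to 275, quartiles 150 and 525 bp) for single-gene intervals. On 10 of 21 chromosomes the opposite-strand median was the larger, on 6 the medians were equal and on 5 it was the smaller. Widths over 10000 bp made up 3.55% of opposite-strand and 3.01% of single-gene intervals. The most frequent widths among the 1833 were 175 bp (152 intervals) and 50 bp (8.24%).

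The form of the widths set the classes apart more than their size. Most widths in the list (23653 of 29268) were exact multiples of 25 bp. Such a width is here called whole-step and any other broken. Broken widths made up 612 of the 1833 opposite-strand intervals (33.4%, 31.3 to 35.6), against 18.3% of single-gene intervals (17.8 to 18.7). Same-strand shared intervals, which also belong to several genes, had 17.6% (15.0 to 20.7). The share of broken widths was larger in opposite-strand than in single-gene intervals on 20 of 21 chromosomes. It ran from 15.0% to 41.8% over chromosomes in opposite-strand intervals and from 14.6% to 20.6% in single-gene ones. The exception was chromosome 11, where 3 of 20 opposite-strand intervals were broken.

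Both forms were shorter in the opposite-strand class. Whole-step intervals had a median of 175 bp (order-statistic interval 175 to 175, n = 1221), against 225 bp (200 to 225, n = 21872) in single-gene intervals. Broken intervals had a median of 733 bp (637 to 833, n = 612), against 1919 bp (1797 to 2047, n = 4883). The similar overall medians therefore combine shorter intervals of either form with a larger share of the longer form.

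**Figure D3:**
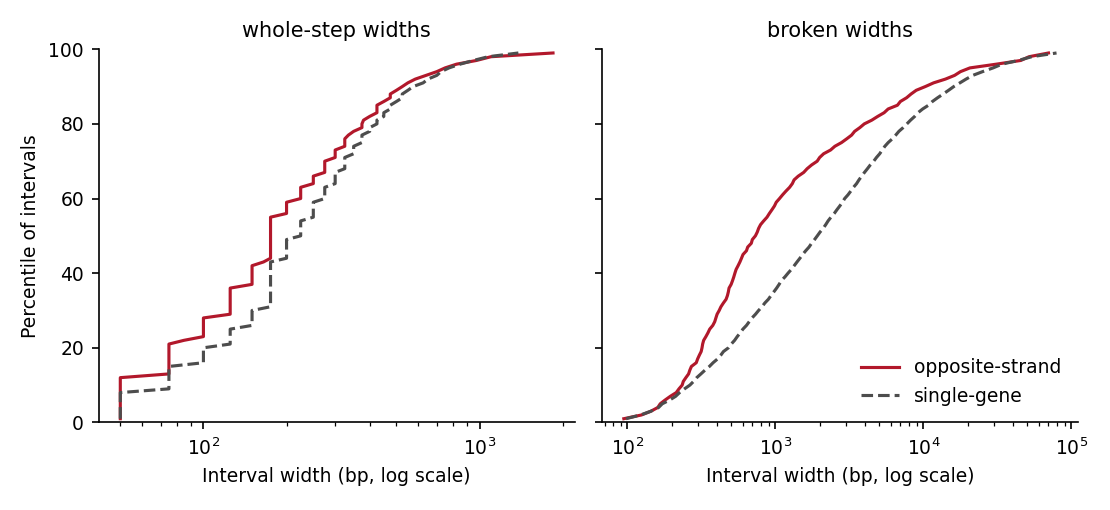
Percentiles of interval width (horizontal axis, bp, log scale) for opposite-strand intervals (solid) and single-gene intervals (dashed), with whole-step widths on the left and broken widths on the right. The solid line lies left of the dashed one over most of both panels, with the wider separation among broken widths (medians 733 and 1919 bp).

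The excess of broken widths was concentrated at moderate length. Of broken intervals over 300 and up to 1000 bp, 17.7% (15.8 to 19.7; 250 of 1416) were opposite-strand, and of those over 150 and up to 300 bp 15.9% (13.1 to 19.3; 85 of 533). Among whole-step intervals of the same bands the shares were 4.19% (290 of 6919) and 4.26% (373 of 8765). Above 1000 bp the contrast was small, with 7.34% of broken and 5.57% of whole-step intervals up to 10000 bp. Over both forms the share was 7.02% at 50 bp, 7.30% above that and up to 150 bp, 4.93% up to 300 bp, 6.48% up to 1000 bp, 7.03% up to 10000 bp and 7.32% beyond. A wider interval covers more ground in which a second gene can lie, and the part of this in the shares was not tested.

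**Figure D4:**
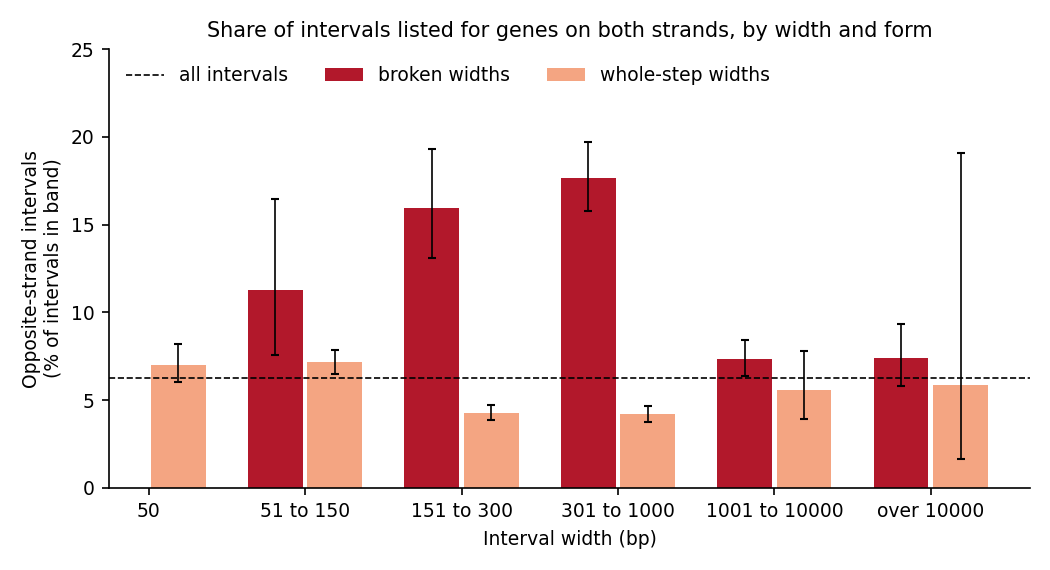
Opposite-strand intervals as a share of all intervals in each width band (vertical axis, %), with broken widths in the darker and whole-step widths in the paler bars; error bars are 95% Wilson intervals and the dashed line is the share over all intervals, 6.26%. Broken widths over 150 and up to 1000 bp reach 15.9% and 17.7%, and no broken interval exists at 50 bp; the last whole-step bar rests on 2 of 34 intervals.

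Broken widths were unequally spread over the arrangements. They made up 46 of 91 head-to-head intervals (50.5%, 40.5 to 60.6) and 69 of 252 tail-to-tail intervals (27.4%, 22.2 to 33.2). The share was 31.2% where one gene had own intervals and 36.0% where neither had. Median widths were 223 bp for head-to-head and 250 bp for tail-to-tail flanks.

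Neighbouring opposite-strand intervals more often lay on different 25-bp grids than neighbouring intervals of the other classes. The phase of a position, as deposited, is its remainder after division by 25, and intervals are in step when their phases are equal. For neighbouring whole-step intervals with the same genes and at most 200 bp apart, 170 of 203 opposite-strand neighbours were in step (83.7%, 78.1 to 88.2). Single-gene neighbours were in step in 4299 of 4305 cases (99.9%) and same-strand shared neighbours in 129 of 129. At distances over 200 and up to 1000 bp the shares were 74.5% of 137 opposite-strand and 95.0% of 2998 single-gene neighbours.

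In the chromosome 7 pair 2 grids interlocked. Its 10 intervals, in order of position, were 50, 50, 1183, 833, 883, 233, 533, 150, 175 and 150 bp wide. The 5 whole-step intervals used 2 phases, 7 and 24. The 5 broken intervals all started on phase 24 and all ended on phase 7, so each left the same remainder of 8 bp. Here a broken width joined a start on one grid to an end on the other. The other named pairs were not all so regular. Whole-step intervals of the chromosome 1 pair used 3 phases, and its 1 broken interval started and ended on such phases. Those of the chromosome 9 pair used 6 phases, and its 1 broken interval started on one of them but ended on none.

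Over all pairs the comparison rested on few cases. For neighbouring broken intervals with the same genes, each up to 1000 bp wide and at most 1000 bp apart, both the starts and the ends were in step in 23 of 35 opposite-strand cases (65.7%, 49.2 to 79.2). Among single-gene intervals this held in 0 of 28 cases, which allows a share of up to 10.7% (3 counts of the 28).

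The grids could in part be tied to a gene of the pair. Each opposite-strand interval up to 1000 bp wide was set against the nearest whole-step, single-gene interval of either gene within 2000 bp. Whole-step shared intervals were in step with the plus-strand gene in 37 of 81 cases (45.7%) and with the minus-strand gene in 29 of 71 (40.8%). Whole-step single-gene intervals of the same widths were set in the same way against the nearest other one of their own gene. These were in step in 95.5% of 6126 plus-strand and 95.8% of 6168 minus-strand cases. Distance to the neighbour was not matched between shared and single-gene intervals. Shares in step were lower at longer distances above, and the part of distance in this gap was not tested. Unrelated positions would be in step in 4% of cases. Where both genes had such a neighbour, 5 of 10 whole-step intervals were in step with the plus-strand gene only, 4 with the minus-strand gene only, 0 with both and 1 with neither. With neighbours up to 10000 bp away the counts were 7, 8, 0 and 14 of 29.

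Broken shared intervals matched the strands at different ends. Against the plus-strand gene, the end alone was in step in 18 and the start alone in 9 of 41 cases. Against the minus-strand gene, the start alone was in step in 25 and the end alone in 4 of 41. In broken single-gene intervals the start was the matching side on both strands, in 211 of 339 cases (end in 78) for plus-strand genes and 128 of 223 (end in 47) for minus-strand genes. The plus-strand and minus-strand cases were mostly different intervals: only 5 broken intervals had such a neighbour of both genes, of which 2 were in step with the plus-strand gene only, 0 with the minus-strand gene only, 2 with both and 1 with neither. What made the grids was not tested.

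Chromosomes differed in how many of their intervals were opposite-strand. The share was 9.34% on chromosome 10 (225 of 2408; 8.25 to 10.6) and 8.92% on chromosome 20 (73 of 818; 7.16 to 11.1), against a median of 6.42% over the 20 autosomes. It was 2.63% on chromosome 11 (20 of 761; 1.71 to 4.02) and 3.88% on chromosome 18 (34 of 876; 2.79 to 5.37). Chromosome X, with 5.14% (41 of 798; 3.81 to 6.90), lay within the range of the autosomes. The number of overlapping gene pairs on each chromosome was not available here to set beside these shares.

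**Figure D5:**
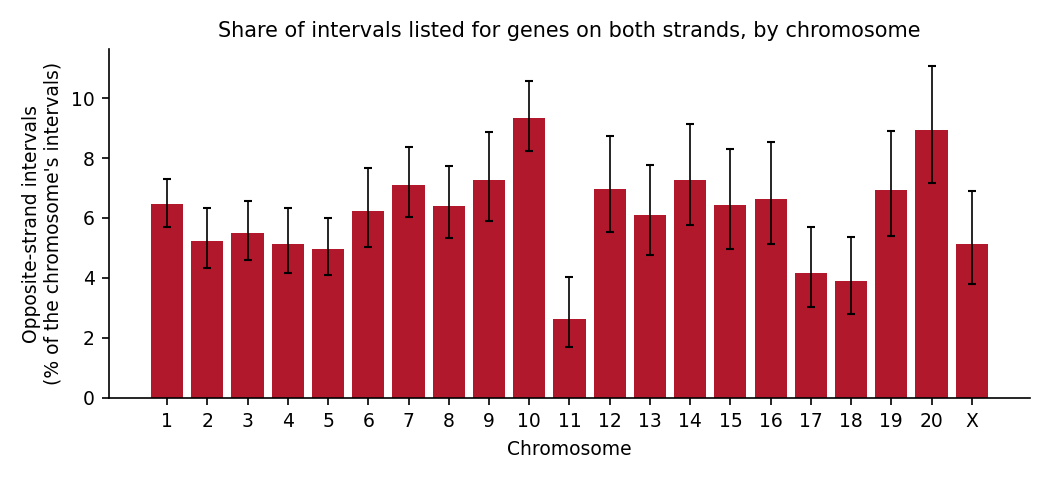
Opposite-strand intervals as a share of all distinct intervals on each of 20 autosomes and X (vertical axis, %; error bars are 95% Wilson intervals). Chromosome 10 (9.34%) and chromosome 20 (8.92%) stand at the top and chromosome 11 (2.63%) at the bottom.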

How the data were processed

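MeRIP-seq samples were grouped as case and control by their titles. Per the submitters' processing notes, HISAT2 and the build Rnor_6.0 were used. The sources used here do not name the peak caller, its threshold or the annotation, nor say whether samples were pooled for calling. The authors' deposited table has 5 columns, per the file headers (chromosome, start, end, Ensembl gene ID, gene strand), with 31999 rows. Its positions are of another kind than a measurement, and no read count or enrichment comes with them. Starts were taken as 0-based and are printed 1-based. The file names no build; its highest positions lie nearer the chromosome ends of mRatBN7.2 than those of Rnor_6.0 (background knowledge), so the build is unsettled and no position was placed on a genome. The gene table used here (GRCr8) pairs no Ensembl ID with a symbol, so no gene was named and no sequence is shown.

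Shares have 95% Wilson intervals and medians exact order-statistic intervals. Both cover counting error only and treat intervals as independent, which those of 1 gene pair are not. No test was made, since no value belongs to a sample. The opposite-strand class and the arrangements that were found were tested on simulated plus-minus gene pairs. Own intervals of both genes on 1 side or on both sides were not simulated. The simulated intervals were listed for every gene they overlapped, so the check of each gene's stretch could not fail there. The place ranks and the same-strand shared class were not tested in this way. Beside a count of 0, the limit given is 3 counts of the total. Named pairs were those with the most shared intervals (3 pairs, ties broken by lower chromosome number) or the most own intervals (1 per flank type); named intervals were the 2 widest and the 2 with most genes. Members and measures were chosen with earlier results of these data known, and the grid-phase and neighbour measures after seeing these values. Python 3.11.15, numpy 2.4.6, pandas 2.3.3, scipy 1.17.1 and matplotlib 3.10.9 were used.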

Additional observations from a re-analysis of the deposited data

How the results depend on the processing

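Of 32 recomputed values of 5 results, 19 stayed within the main 95% interval and 13 moved outside it. All alternatives, for the 19 as for the 13, remove, join or narrow the intervals or genes used, so this does not set the 13 apart. The median width (275 bp) was 300 bp without 50 bp intervals, 175 bp when broken widths were left out and 318 bp with intervals of the same genes up to 100 bp apart joined. The share of whole-step widths (66.6%) became 63.6% without 50 bp intervals, 62.9% after joining and 68.9% without intervals over 10000 bp. The opposite-strand share of all intervals (6.26%) became 5.16% with whole-step widths alone and 5.84% with only 2-gene intervals kept among them. The 3'-most share (33.0%) became 34.6% without 50 bp intervals, 37.0% after joining and 26.5% in genes with 3 or more intervals, where the same chance for each interval gives 22.0%. The tail-to-tail share (73.5%) became 79.7% with whole-step widths alone (n = 143) and 84.8% where each gene had at least 2 own intervals (n = 79). No paired analysis was possible because the list gives positions and genes only, and for that reason no replicate could be left out. The distance limit of 10000 bp for grid phases was added after seeing the data: the share of whole-step intervals in step with exactly 1 gene was 90.0% of 10 within 2000 bp and 51.7% of 29 within 10000 bp. Depth is unknown, so absence from the list says nothing of absence of m6A.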

Other observations

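Ensembl numbers its gene IDs broadly in order of creation, so high numbers mark later gene models. Among genes with an opposite-strand interval, 435 of 2050 (21.2%) had a number of 60000 or more, against 1266 of 11096 genes without one (11.4%). The share was 28.5% (95% Wilson interval 26.0 to 31.2) in the 1140 genes listed only through opposite-strand intervals, and 12.1% (10.1 to 14.4) in the 910 that also had others. By pairs, at least 1 such gene was present in 46.8% of 235 pairs in which neither gene had own intervals, 29.1% of 533 pairs in which one gene had, 21.1% of 71 head-to-head pairs and 14.7% of 150 tail-to-tail pairs. In 52 of the 235 pairs without own intervals both genes had such a number, and in 0 of the tail-to-tail pairs. Which of these genes are coding was not analysed here.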
